A study of Bos taurus with 6 samples.

Results

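The mitochondrial ribosome was followed through its own proteins in bovine cumulus cells, which enclose the oocyte inside the ovarian follicle. The genes were chosen by name: those whose symbol in the array annotation, or a current synonym of it, starts with MRPL or MRPS followed by a number. This gave 78 genes with 132 probes, of 15214 named genes on an array of 43794 gene probes. Of these, 75 matched by their annotated symbol and 2 by their current symbol only (MRPL57, annotated as MRP63, and MRPL58, annotated as ICT1). DAP3 matched through the listed synonym MRPS29. Of the 78 genes, 77 passed the filter on low signal with at least 1 probe (123 probes in all), out of 12398 genes and 32125 probes tested. The gene that did not pass was MRPS12, a protein of the decoding centre, whose probe lay above background on 1 array in the cetrorelix channel and on 2 in the control channel.

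The cells came from Holstein dairy cows, 6 in all per the labels, given follicle-stimulating hormone (FSH) over 3 days and then none for 68 h before the cumulus-oocyte complexes were recovered. In the cetrorelix condition the cows also received 12 mg of cetrorelix per day for 5 days, starting on day 2 of FSH. Cetrorelix acts on the receptor for gonadotropin-releasing hormone and lowers luteinizing hormone secretion; it is known as an antagonist, although the labels name it an agonist. The control condition had the same FSH stimulation and withdrawal with no cetrorelix. Both conditions lay on each of 6 2-colour arrays, as 3 biological replicates with a dye swap, so that every replicate has an array with cetrorelix RNA in Cy5 and another with it in Cy3. Since the cows behind each replicate are not named in the labels, p-values of cetrorelix over control measure only the spread between these 3 replicates. That spread may be technical.

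Mitochondrial ribosomes sit in the mitochondrial matrix and translate the few messenger RNAs of the mitochondrial genome, which encode core subunits of the respiratory chain and of ATP synthase. All their proteins are encoded in the nucleus, made in the cytosol and imported, whereas the ribosomal RNAs come from mitochondrial DNA. The small subunit binds the messenger RNA and decodes it. The large subunit joins the amino acids and passes the new chain through a tunnel towards the inner membrane. Some of the proteins have bacterial counterparts and others exist only in mitochondria. Cumulus cells feed the oocyte with metabolites through gap junctions and have mitochondria of their own.

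The 3 arrays with cetrorelix in Cy5 shared a slide, called the Cy5 slide here, and the 3 with cetrorelix in Cy3 shared the other, the Cy3 slide. An effect of the slide and an effect of the dye orientation therefore cannot be told apart. Log2 ratios of different replicates correlated at 0.27 to 0.33 (Pearson's r over 32125 probes) within the Cy5 slide and at 0.43 to 0.67 within the Cy3 slide. Between the slides, arrays of the same replicate correlated at only 0.08, 0.26 and -0.13. The log2 ratios were least spread on replicate 1 of the Cy3 slide and replicate 3 of the Cy5 slide. Their SD over the tested probes was 0.32 on each, against 0.51 to 0.66 on the other arrays. The share of all gene probes above background was 40.9% to 70.9% in the cetrorelix channel and 54.8% to 69.7% in the control channel, and for the 132 probes considered here it was 78.0% to 94.7% and 79.5% to 94.7%. Of 16 granulosa and cumulus markers, all were tested and 12 were above background on every array in both channels. Of the markers of other cells, 1 of 14 for the oocyte, 2 of 10 for leukocytes, 0 of 10 for endothelium, 4 of 12 for theca and stroma and 3 of 8 for erythrocytes were above background on every array in both channels. The level of a transcript in such bulk RNA can differ through the number of cells of a type or through the RNA per cell, which cannot be told apart here.

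MRPL57 rose in cetrorelix cells and was the only one of the 77 genes to pass the test. Over all 12398 tested genes 1 was higher at this threshold (0.00807%). That gene is MRPL57 itself, so the share is no separate background. Its product is a small protein of the large subunit with no bacterial counterpart. On the Cy5 slide, its normalised log2 intensity was 11.35, 11.04 and 10.55 in cetrorelix cells of replicates 1, 2 and 3, against 9.62, 9.42 and 9.89 in control cells. On the Cy3 slide it was 11.88, 11.99 and 11.64 in cetrorelix cells against 10.08, 9.40 and 9.59 in control cells. Every cetrorelix value lay above every control value, on both slides. Intensities were not scaled between arrays, so levels are comparable only within an array. The log2 ratio of cetrorelix over control was 1.77, 2.11 and 1.35 in the 3 replicates, with a mean of 1.74 ± 0.38 (SD, n = 3), a 3.35-fold difference (limma, adjusted p = 0.0398 over all 32125 probes). Over the whole array, 4 probes were higher at this threshold (0.0125% of those tested) and 0 were lower (0%). With all 6 arrays and the replicate as a block 150 were higher and 84 lower, without replicate 1 there were 0 in either direction, without replicate 2 274 and 110, and without replicate 3 707 and 547. MRPL57 has 1 probe, so no other probe checks its value. Without replicate 1 the log2 ratio was 1.73 with an adjusted p of 0.419 by limma. When the probes of each gene were averaged instead of read singly, the adjusted p by limma was 0.0880, at the same log2 ratio.

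Among the 77 genes MRPL57 ranked first in each of the 3 replicate means. The next gene lay at 0.62 in replicate 1 (MRPL45), 1.16 in replicate 2 (MRPS2) and 0.90 in replicate 3 (MRPS33), against 1.77, 2.11 and 1.35 for MRPL57. On single arrays its position moved. It had rank 1 on 4 arrays, rank 2 behind MRPS7 on replicate 3 of the Cy3 slide, and rank 9 on replicate 3 of the Cy5 slide, where its log2 ratio was 0.65 and that of MRPS23, a protein of the small subunit, was 1.37. Across all 12398 tested genes, MRPL57 had rank 1 by p and rank 3 by log2 ratio. By p its probe had rank 4 among the 32125 tested probes. MRPL57 was named by the rule in advance, with earlier results of these data known. Its ranks are therefore a description and not support. Its mean log2 ratio was 1.34 on the Cy5 slide and 2.15 on the Cy3 slide. This difference of -0.81, with an SD of 0.67 over the 3 replicates, had an adjusted p of 0.0227 by limma. For the slide difference, the p by limma followed its size and hardly the gene's own spread between replicates. MRPL22, at -0.82 with an SD of 0.20, had an unadjusted p of 0.0018 by limma, against 0.0021 for MRPL57.

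**Figure D1:**
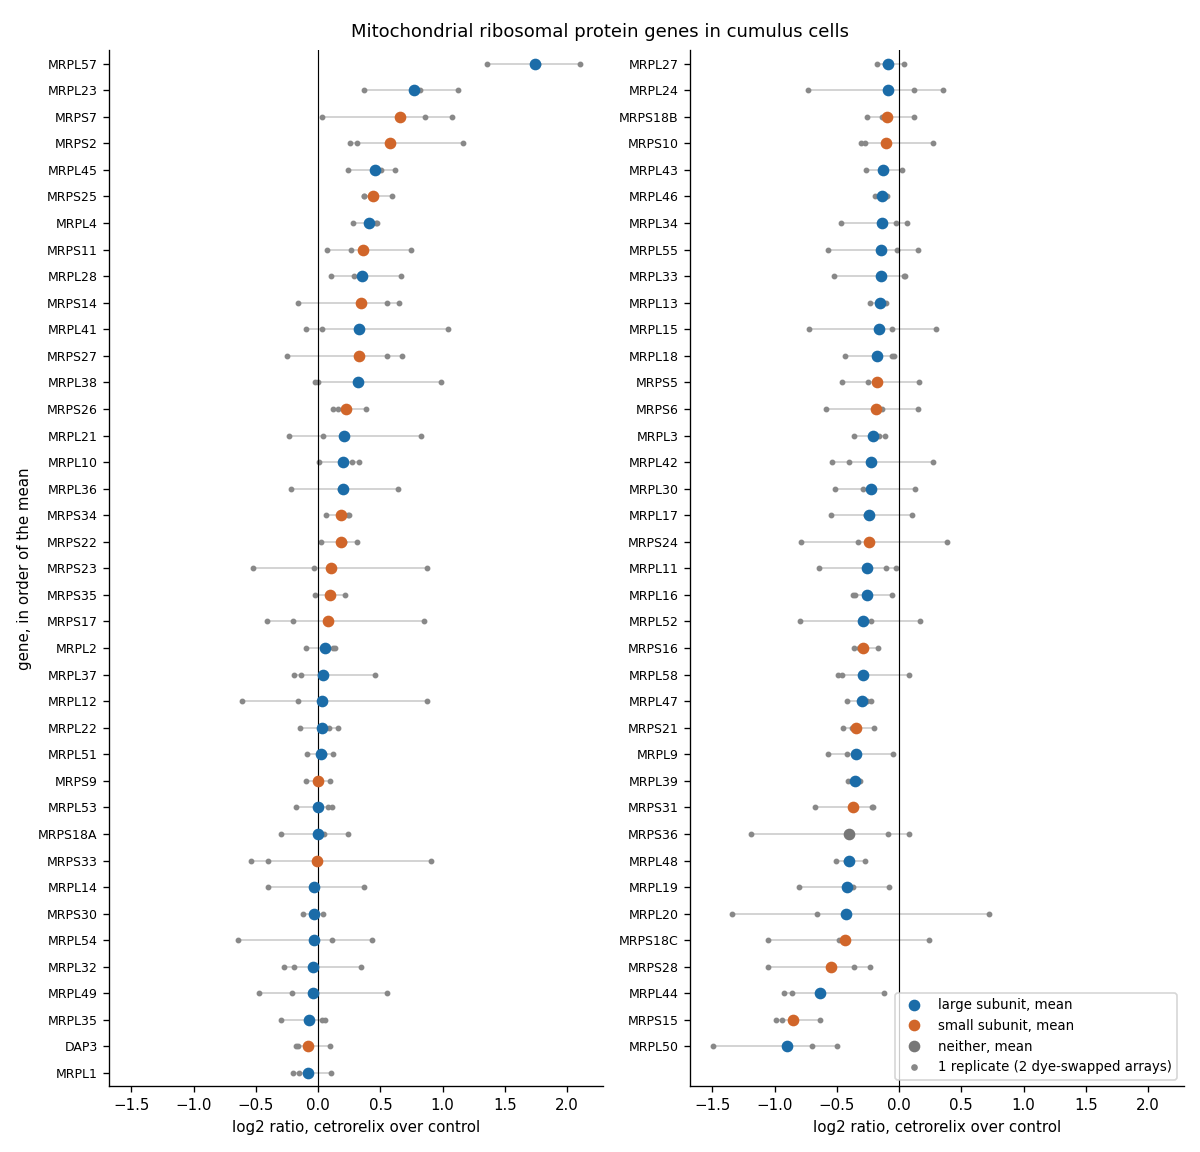
Log2 ratio of cetrorelix over control (x axis) for the 77 tested genes, ordered by their mean from the top left to the bottom right. Large points are means of 3 replicates, coloured by subunit, small grey points are the replicates and grey lines their range; MRPL57 at 1.74 is highest, MRPL23 at 0.77 comes next and MRPL50 at -0.90 is lowest.

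The other 76 genes lay around 0, more of them below it than above. Of all 77, 48 had a mean log2 ratio below 0 and 29 above (62.3% below), while 51.8% of all 12398 tested genes lay below 0. The median of the 77 was -0.08, and the replicate medians were -0.16, 0.01 and -0.03 with an SD of 0.09, so the median was no larger than the spread between replicates. The median over all tested genes was -0.01. At an unadjusted p under 0.05 by limma, 7 of the 77 were higher, against 7.17% of all genes, and 9 were lower, against 8.55%. Under median centring without loess the counts were 6 higher and 16 lower (27.3% of these higher, against 43.8% with loess), and over all genes 5.39% were higher and 11.6% lower. Without replicate 1 the counts in the set were 5 higher and 3 lower. All 6 arrays pointed the same way for 4 genes higher in cetrorelix (background 4.01%) and 7 lower (background 5.75%). Those higher on 6 of 6 arrays were MRPL57, MRPL23, MRPS2 and MRPL45. Those lower on 6 of 6 arrays were MRPL50, MRPS15, MRPL44, MRPS28, MRPL19, MRPL48 and MRPS21. Apart from MRPL57, 76 genes did not pass after adjustment, in either direction.

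MRPS18A and MRPS30 are counted with the large subunit, where their products sit in spite of their names. The large subunit leaned below 0, with 34 of 50 genes there (68%, against 51.8% of all tested genes), 16 above and a median log2 ratio of -0.09. In it, 4 were higher and 5 lower at an unadjusted p under 0.05, against 7.17% and 8.55% of all genes. MRPL23, which lines the mouth of the tunnel where the new chain leaves, came next after MRPL57. On the Cy5 slide its log2 intensity was 9.32, 9.40 and 9.95 in cetrorelix cells against 8.73, 8.12 and 9.24 in control cells. On the Cy3 slide it was 9.96, 9.79 and 9.51 in cetrorelix cells against 9.82, 8.82 and 8.59 in control cells. Cetrorelix was above control on each array, but the ranges of the groups overlapped through the control value of replicate 1 on the Cy3 slide. Levels on that array were not scaled to those of the others. The mean log2 ratio was 0.77 ± 0.38 (limma, adjusted p = 0.150), and the other MRPL23 probe gave 1.02 ± 0.16 (limma, adjusted p = 0.0833) with all 6 arrays above 0. Both probes therefore pointed the same way and neither passed.

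MRPL45, which anchors the large subunit to the inner membrane, had log2 ratios of 0.64, 0.79 and 0.29 with cetrorelix in Cy5 and 0.60, 0.22 and 0.19 with cetrorelix in Cy3. Its mean was 0.45 ± 0.19 (limma, adjusted p = 0.279), while its other tested probe lay at -0.15. MRPL4, which reaches into the wall of the tunnel, had log2 ratios of 0.30, -0.06 and -0.24 on the Cy5 slide and 0.63, 0.99 and 0.80 on the Cy3 slide. Its mean of 0.40 ± 0.11 (limma, adjusted p = 0.317) thus came from the Cy3 slide, with the Cy5 slide at a mean of 0.003. MRPL28 had a mean of 0.35 ± 0.29 and was higher on 5 of 6 arrays (limma, adjusted p = 0.479). This probe was above background on 5 of 6 arrays in each condition, and the other tested MRPL28 probes lay at 0.05 and 0.06.

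MRPL50, a mitochondrion-specific protein, was the lowest of the 77. Its log2 intensity was 11.51, 10.24 and 11.13 in cetrorelix cells against 11.98, 11.86 and 11.83 in control cells with cetrorelix in Cy5. With cetrorelix in Cy3 it was 11.67, 10.57 and 11.48 in cetrorelix cells against 12.20, 11.94 and 12.18 in control cells. Every cetrorelix value lay below every control value, and replicate 2 was lowest in cetrorelix cells on both slides. The mean log2 ratio was -0.90 ± 0.53, 1.87-fold lower (limma, adjusted p = 0.143). With all 6 arrays and the replicate as a block the adjusted p by limma was 0.0493, and without replicate 3 it was 0.0296. Over 15 alternatives in processing it reached 0.479. The block fit in effect counts the arrays as 6 separate samples.

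MRPL44, which carries a fold related to RNase III, had log2 ratios of -1.13, -0.99 and -0.20 on the Cy5 slide and -0.59, -0.86 and -0.05 on the Cy3 slide. Replicates 1 and 2 were low and replicate 3 was close to 0 on both slides. The mean was -0.64 ± 0.45 (limma, adjusted p = 0.226), and -0.89 without replicate 3 (limma, adjusted p = 0.0250). Over 15 alternatives in processing the adjusted p of MRPL44 by limma reached 0.695. MRPL48 lay at -0.40 ± 0.12 (limma, adjusted p = 0.324) and was lower on every array, between -0.63 and -0.22. MRPL19, whose bacterial counterpart sits at the interface between the subunits, lay at -0.42 ± 0.36 (limma, adjusted p = 0.405), lower on every array, with its other, dimmer probe at 0.05.

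MRPL20, whose bacterial counterpart joins early in assembly of the large subunit, had the widest spread between replicates of the 77 genes. Its replicate means were -0.66, -1.34 and 0.72, with a mean of -0.43 ± 1.05 (limma, adjusted p = 0.765). Without replicate 3 it was lower in cetrorelix cells past the threshold (limma, adjusted p = 0.0211), and without replicate 2 it lay at 0.03. MRPL39, which is related to threonyl-tRNA synthetase, had a mean of -0.36 ± 0.05 (limma, adjusted p = 0.380) with a narrow spread between replicates, yet the sign differed between slides. Its log2 ratios were -1.03, -1.19 and -1.26 on the Cy5 slide and 0.22, 0.56 and 0.56 on the Cy3 slide. Averaging the 2 arrays of a replicate gave nearly the same value each time. These values are of the brightest probe. A dimmer MRPL39 probe, above background on 6 arrays in both conditions, was below 0 on every array of both slides. Its mean was -0.63 ± 0.56 (limma, adjusted p = 0.282), and the remaining probes, close to background, lay at -0.08 and 0.01.

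**Figure D2:**
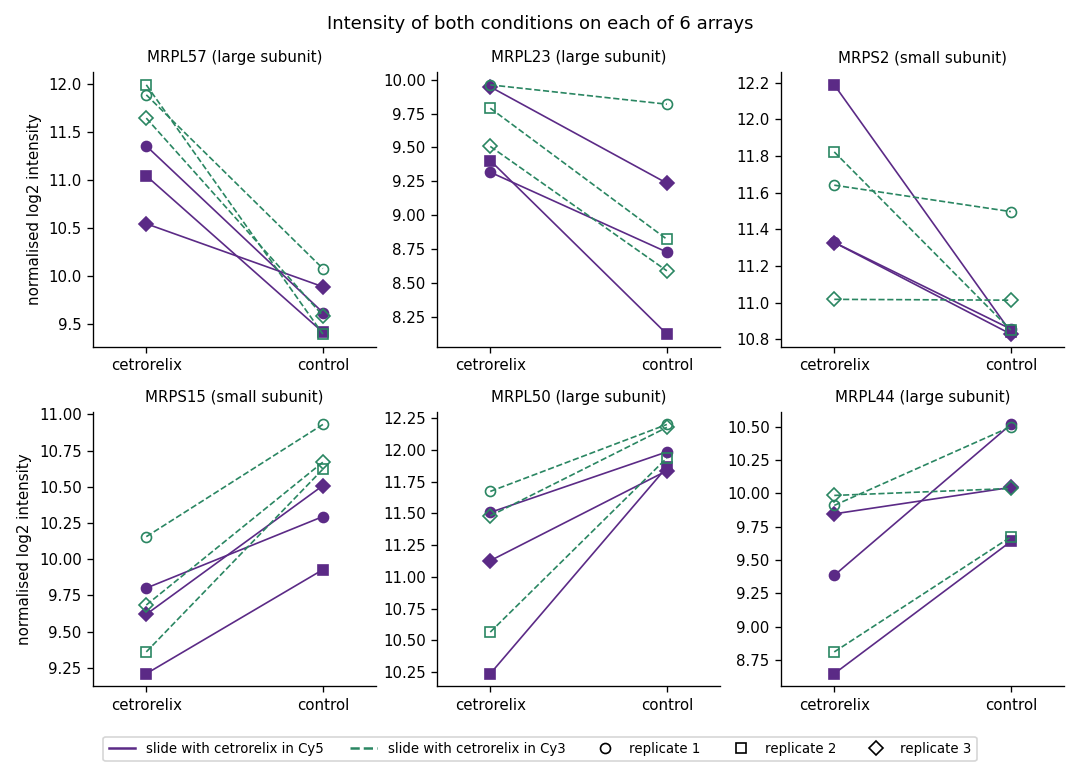
Normalised log2 intensity (y axis) of 6 genes in cetrorelix (left) and control (right) cells, each line 1 array; solid purple lines are the Cy5 slide, dashed green lines the Cy3 slide, and marker shapes give the replicate. Lines fall to the right for MRPL57, MRPL23 and MRPS2 and climb to the right for MRPS15, MRPL50 and MRPL44, with MRPL57 between 10.55 and 11.99 in cetrorelix against 9.40 and 10.08 in control.

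The 5 proteins of the large subunit's stalk that recruits translation factors (MRPL10, MRPL11, MRPL12, MRPL53 and MRPL54) lay between -0.26 and 0.20, and 0 of them had an unadjusted p under 0.05. MRPL12, a stalk protein that also binds mitochondrial RNA polymerase, had replicate means of -0.16, 0.87 and -0.61. MRPL58, a peptidyl-tRNA hydrolase built into the large subunit, lay at -0.29 ± 0.32 with its other probe at -0.24.

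The 30 large-subunit proteins with a bacterial counterpart had a median of -0.11 and the 20 without one a median of -0.04. In the small subunit these medians were -0.18 for 15 genes and 0.11 for 11 genes. Over both subunits, 30 of 45 genes with a bacterial counterpart lay below 0, as did 17 of 31 mitochondrion-specific genes. The replicate medians were -0.16, -0.02 and -0.05 for the genes with a bacterial counterpart and -0.10, 0.04 and -0.02 for the mitochondrion-specific genes. This order in the replicates did not hold within the large subunit. There the replicate medians were -0.13, -0.01 and -0.05 with a counterpart and -0.19, 0.06 and -0.11 without. Nor did it hold on the slides, at -0.09 with a counterpart and -0.13 without on the Cy5 slide, and -0.01 and -0.02 on the Cy3 slide. The difference between genes with and without a counterpart was not tested.

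The small subunit was split evenly, 13 of 26 tested genes above 0 and 13 below, around a median of -0.005 on the log2 scale. In it, 3 were higher and 4 lower at an unadjusted p under 0.05, against 7.17% and 8.55% of all genes. MRPS15, which binds the small ribosomal RNA, was the lowest and had the smallest p of the 48 genes below 0. Its log2 intensity was 9.80, 9.21 and 9.62 in cetrorelix cells against 10.29, 9.93 and 10.51 in control cells with cetrorelix in Cy5. With cetrorelix in Cy3 it was 10.16, 9.36 and 9.68 in cetrorelix cells against 10.93, 10.62 and 10.67 in control cells. Cetrorelix was below control on each array, by 0.49 to 1.26. The value of cetrorelix replicate 1 on the Cy3 slide exceeded the lowest control value, which lay on another array, and levels were not scaled between arrays. The mean log2 ratio was -0.85 ± 0.19, 1.81-fold lower, which did not pass (limma, adjusted p = 0.0856). It passed with all 6 arrays and the replicate as a block (limma, adjusted p = 0.0267), without replicate 2 (limma, adjusted p = 0.0178) and without replicate 3 (limma, adjusted p = 0.0417). That block fit in effect counts the arrays as 6 separate samples. Over 15 alternatives in processing the adjusted p of MRPS15 by limma reached 0.432, and without replicate 1 no probe passed.

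MRPS28 had log2 ratios of -0.14, -0.59 and -0.25 on the Cy5 slide and -0.33, -1.52 and -0.47 on the Cy3 slide. Replicate 2 was lowest on both slides, and the mean was -0.55 ± 0.44 (limma, adjusted p = 0.290). MRPS21 lay at -0.34 ± 0.13 (limma, adjusted p = 0.420) and was lower on 6 of 6 arrays. MRPS31 lay at -0.37 ± 0.27 (limma, adjusted p = 0.431) and was lower on 5 of 6, with its other, dimmer probe at -0.03. MRPS18C, the member of its family that takes the place of the bacterial protein, lay at -0.43 on one probe and at -0.42 on the other, with replicate means of -0.48, -1.05 and 0.24 on the brighter probe (limma, adjusted p = 0.572).

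MRPS2, which has a bacterial counterpart, had log2 intensities of 11.33, 12.19 and 11.33 in cetrorelix cells against 10.86, 10.84 and 10.83 in control cells with cetrorelix in Cy5. With cetrorelix in Cy3 they were 11.64, 11.82 and 11.02 in cetrorelix cells against 11.50, 10.85 and 11.01 in control cells. It was higher on 6 of 6 arrays, most in replicate 2, although the ranges of the groups overlapped, with a mean log2 ratio of 0.57 ± 0.51 (limma, adjusted p = 0.303). MRPS25 had a mean of 0.44 ± 0.13 (limma, adjusted p = 0.274) with its other probe at 0.20. MRPS11, at the platform of the subunit, lay at 0.36 ± 0.35 and MRPS14, in its head, at 0.35 ± 0.44 (limma, adjusted p = 0.495 and 0.586).

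MRPS7, a protein of the head near the path of the messenger RNA, had the highest mean of the small subunit at 0.65 ± 0.55 (limma, adjusted p = 0.258), but its direction followed the slide. Its log2 ratios were -1.45, -0.35 and -0.91 on the Cy5 slide and 1.51, 2.50 and 2.62 on the Cy3 slide. The Cy3 channel was thus the brighter on all 6 arrays. Its other probe had a mean of -0.12. MRPS36, which is counted in neither subunit because its product belongs to the 2-oxoglutarate dehydrogenase complex, lay at -0.40 ± 0.69, with replicate means of -0.09, -1.19 and 0.08.

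Set side by side, the subunits did not differ beyond the spread between replicates. The median log2 ratio was -0.09 for the large subunit and -0.005 for the small subunit, a difference of -0.08. In the 3 replicates this difference was 0.01, 0.18 and -0.28, with an SD of 0.23 and a change of sign in replicate 3. In replicate 1 the medians were -0.15 for the large and -0.16 for the small subunit, in replicate 2 they were 0.04 and -0.14, and in replicate 3 they were -0.09 and 0.20. On single arrays the large subunit median was below that of the small subunit on 4 arrays and above it on the 2 arrays of replicate 2. Without replicate 2 the difference was -0.19, and without replicate 3 it was -0.03. The SD of the gene means was 0.38 in the large subunit, or 0.28 without MRPL57, and 0.36 in the small subunit.

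**Figure D3:**
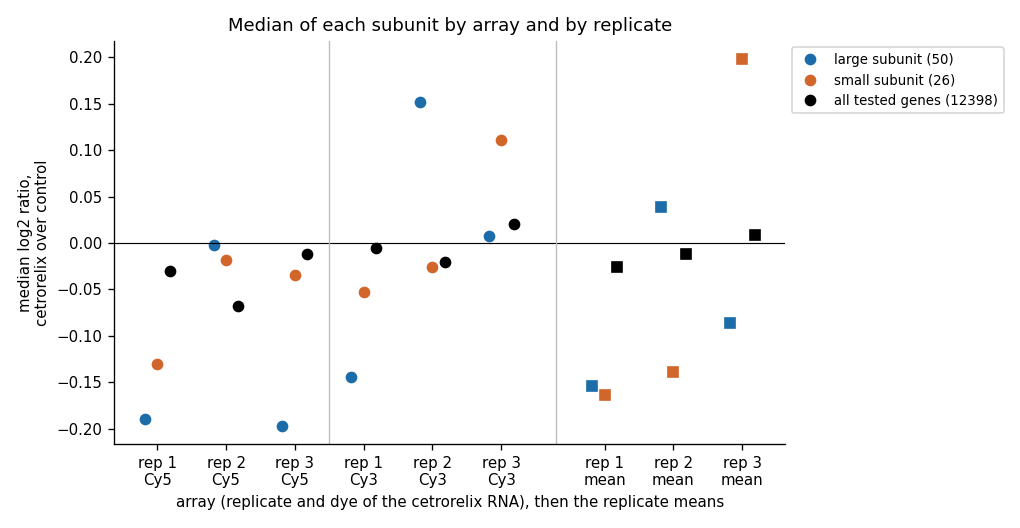
Median log2 ratio of cetrorelix over control (y axis) for the large subunit, the small subunit and all tested genes, on each of 6 arrays (circles) and in each replicate mean (squares). The large and small subunit medians trade places, at 0.04 and -0.14 in replicate 2 and at -0.09 and 0.20 in replicate 3.

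The replicate means of many of these genes differed in sign. All 3 replicate means lay above 0 for 13 of the 77 genes (background 15.5%) and below 0 for 18 (background 18.4%). In 20 genes replicate 3 alone had the opposite sign, in 16 replicate 2 alone and in 10 replicate 1 alone. Over all 12398 tested genes these counts were 3159, 2324 and 2714. MRPS33 gave -0.54, -0.40 and 0.90 in the 3 replicates and MRPS23 gave -0.03, -0.52 and 0.87, both from the small subunit. Replicates 1, 2 and 3 had 50, 38 and 42 of the 77 genes below 0, against 6646, 6338 and 6061 of all 12398 tested genes. The SD across the 77 genes was 0.38, 0.62 and 0.44 in the 3 replicates, against 0.36, 0.56 and 0.31 across all tested genes.

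Of the 77 genes, 43 had 1 tested probe and 34 had several. Among the 34, 19 had probes on both sides of 0, and in 4 the probes differed by more than 0.5 on the log2 scale. These were MRPS7 (0.65 and -0.12), MRPL39 (from -0.63 to 0.01 over 4 probes), MRPS11 (from -0.25 to 0.36 over 4 probes) and MRPL45 (0.45 and -0.15). The brightest probe was read for each gene, and 67 of the 77 genes were above background on all 6 arrays in both conditions. Within those 67 genes at an all-array filter, 5 were higher and 4 lower at an unadjusted p under 0.05, against 10.1% of all genes in each direction under that filter. Across the 77 genes the log2 ratio correlated with the mean log2 intensity of the probe at Pearson's r = -0.15 and Spearman's rho = -0.22, as a description of points that share the same 6 arrays.

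The slide, and with it the dye orientation, moved with the log2 ratio of many of these genes. The difference of the log2 ratio between the slides passed the test in 18 of the 77 genes (limma, adjusted p under 0.05), 23.4% against 12.7% of all tested genes. This count reflects how large the differences were and hardly each gene's spread between replicates. In 8 genes all 3 arrays of one slide lay above 0 and all 3 of the other below, 10.4% against 8.91% of all tested genes. These were MRPS7, MRPL38, MRPL22, MRPL51 and MRPL39, whose ratio was above 0 on the Cy3 slide, and DAP3, MRPL18 and MRPL3, whose ratio was above 0 on the Cy5 slide. MRPL38 had mean log2 ratios of -0.64 on the Cy5 slide and 1.28 on the Cy3 slide, and MRPL3, whose bacterial counterpart reaches the site of peptide bond formation, had 0.41 and -0.83. Of the genes lower on all 6 arrays, MRPL50 had slide means of -0.94 and -0.86 and MRPS15 had -0.70 and -1.01. Being lower on all 6 arrays already fixes the sign on both slides, so an effect of orientation was not tested by these values.

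**Figure D4:**
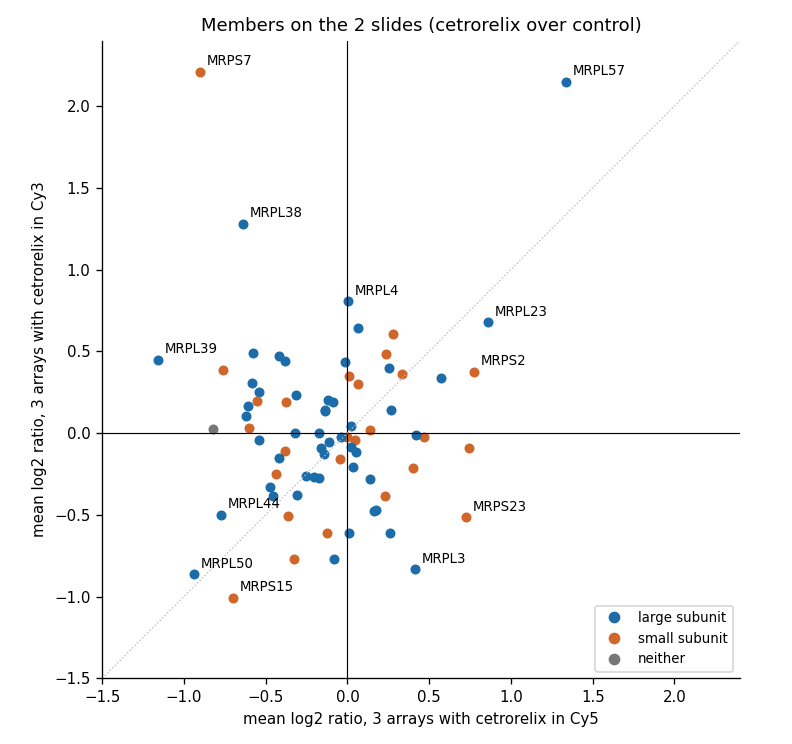
Mean log2 ratio of cetrorelix over control on the Cy5 slide (x axis) and on the Cy3 slide (y axis), 1 point per gene, coloured by subunit; the dotted line marks equal values. MRPL57 (1.34 and 2.15) lies apart at the upper right, MRPL50 and MRPS15 lie at the lower left, and MRPS7 (-0.90 and 2.21) lies far from the line.

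Other genes of mitochondrial gene expression were read from 4 lists. Among the assembly factors of the mitochondrial ribosome, 20 of 30 listed genes were tested, 12 lay below 0, and the median was -0.07. At an unadjusted p under 0.05, 4 were lower, against 8.55% of all genes, and 0 higher, against 7.17%. These 4 were MTERF3, a factor that binds mitochondrial DNA and takes part in large-subunit assembly, at -0.63 ± 0.61, LYRM2 at -0.46 ± 0.32, the RNA methyltransferase TRMT61B at -0.51 ± 0.54, and NGRN at -0.49 ± 0.57. Their adjusted p values by limma ran from 0.305 to 0.432, and only LYRM2 was lower on 6 of 6 arrays. LYRM2 is counted here by its place on the list alone, and a role of it in the mitochondrial ribosome was not tested. Among 19 tested translation factors (median -0.05), MTFMT, which formylates the initiator methionyl-tRNA, was the only gene at an unadjusted p under 0.05. It lay at -0.62 ± 0.22, lower on 6 of 6 arrays (limma, adjusted p = 0.175).

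In the list of mitochondrial DNA upkeep and transcription, 18 of 21 genes were tested, with a median of -0.06. At an unadjusted p under 0.05, 1 was higher (7.17% of all genes) and 4 were lower (8.55% of all genes). LONP1, the matrix protease, had replicate means of 0.50, 1.58 and 0.85 and a mean of 0.98 ± 0.55, higher on 6 of 6 arrays (limma, adjusted p = 0.127). With all 6 arrays and the replicate as a block its adjusted p by limma was 0.0493, and over 15 alternatives in processing it reached 0.432. TRMT10C, a subunit of mitochondrial RNase P, had replicate means of -0.94, -1.30 and -0.67 and a mean of -0.97 ± 0.31, lower on 6 of 6 arrays (limma, adjusted p = 0.0833), with its other probe at -0.10. With the replicate as a block its adjusted p by limma was 0.0269, and over 15 alternatives in processing it reached 0.492. SSBP1, which coats single-stranded mitochondrial DNA, lay at -0.61 ± 0.23, with means of 0.09 on the Cy5 slide and -1.31 on the Cy3 slide (limma, adjusted p = 0.180). TFB2M, a transcription initiation factor, lay at -0.51 ± 0.50 (limma, adjusted p = 0.373).

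Of the regulators of mitochondrial biogenesis, 11 of 15 were tested, with a median of -0.05. At an unadjusted p under 0.05, 3 were lower (8.55% of all genes) and 0 higher (7.17% of all genes). GABPB1, a subunit of the GA-binding protein that drives genes of the respiratory chain, lay at -0.65 ± 0.57 and was lower on 6 of 6 arrays. NFE2L2, of the antioxidant response, lay at -0.69 ± 0.72 and MYC at -0.46 ± 0.49. None passed after adjustment by limma, with adjusted p of 0.269, 0.317 and 0.434. In each of the 4 lists 0 genes passed after adjustment.

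**Figure D5:**
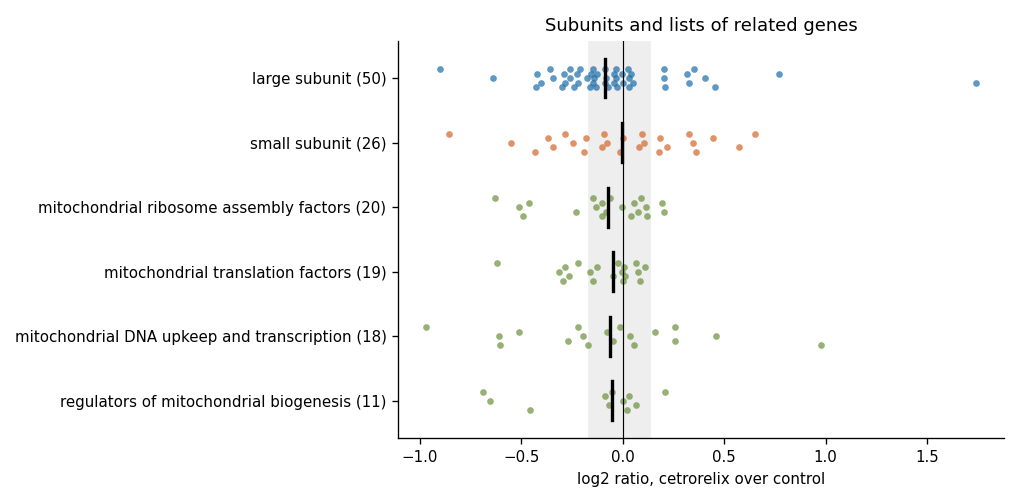
Log2 ratio of cetrorelix over control (x axis) for each tested gene of both subunits and of 4 lists of related genes, with the number tested in brackets; vertical black bars are medians and the grey band is the middle of all tested genes, from -0.17 to 0.14 (quartiles). The medians lie between -0.09 and -0.005, and MRPL57 is the point farthest to the right.

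The products of PTCD3, GADD45GIP1, AURKAIP1 and CHCHD1 also belong to the mitochondrial ribosome but their names did not match. They lay at -0.06 ± 0.41, 0.16 ± 0.21, -0.09 ± 0.27 and -0.22 ± 0.32, inside the range of the matched genes. With these 4 added the median log2 ratio was again -0.08, and the large minus small difference was -0.02. On chromosome 12, the nearest tested genes on either side of MRPL57 in the ARS-UCD2.0 gene table were ZDHHC20 and SKA3, with no gene of that table between. ZDHHC20 lay at -0.22 ± 0.25 (limma, adjusted p = 0.743) and SKA3 at -0.37 ± 0.13 (limma, adjusted p = 0.374). The ZDHHC20 probe was above background on only 2 arrays in the cetrorelix channel and 3 in the control channel, so its direction cannot be read. SKA3, above background on 6 arrays in both channels, did not share the direction of MRPL57.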

How the data were processed

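RNA of cetrorelix and control cumulus cells was amplified, labelled chemically with Cy3 or Cy5 and hybridised to 6 arrays, per the labels' protocols. The deposited scanner tables hold raw median spot intensity and local background for both dyes, per the file headers. The deposited series values are the authors' log2 ratios. For these, limma is listed without a version, in the submitters' processing notes. How the authors corrected background and normalised was not stated in the labels or headers. They served as an alternative, and correlated with the ratios computed here at 0.84 to 0.996 per array. The correlation was lowest on replicate 1 of the Cy3 slide (0.84) and replicate 3 of the Cy5 slide (0.89).

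From the raw intensities, background was corrected by normexp (offset 50) and ratios were normalised by loess within each array (R 4.3.3, limma 3.58.1). Each ratio was expressed as cetrorelix over control. Dye-swapped arrays were averaged per replicate and the 3 means tested against 0 by limma with Benjamini-Hochberg adjustment over 32125 probes (threshold 0.05). Probes had to exceed the 95th percentile of 153 negative control spots on at least 3 arrays in either condition, and 233 further probes with a marked spot were left out. A gene is read from its brightest probe. Replicate numbers pair the arrays of a dye swap by the design text, and deviations of same-numbered arrays from their slide means correlated at 0.23, 0.40 and 0.42. Of the gene probes, 21790 have 1 symbol and 22004 have none listed; names were updated through a RefSeq gene table. Precision is limited by the number of arrays.

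The genes and lists were chosen with earlier results of these data known. By rule, any gene of the set may be named. Full statistics went to MRPL57, to genes at an unadjusted p under 0.05 and to the 5 highest and 5 lowest per subunit. Each related list gave its genes at an unadjusted p under 0.05, or the 4 of lowest p. Alternatives changed the background correction, normalization, filter, probe rule, slide, left-out replicate or source of values. A replicate block (duplicate correlation -0.0259) and a dye term were each fitted to the 6 arrays instead of the 3 replicate means, the dye term without a block. The procedure was tested on simulated data in which arrays of a replicate shared a deviation. The estimated correlation here was -0.0259, so that test does not show how the fits behave on these data.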

Additional observations from a re-analysis of the deposited data

Results flagged for a closer look

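In 8 genes the 3 arrays of the Cy5 slide pointed one way and the 3 of the Cy3 slide the other. The values here are mean log2 ratios, cetrorelix over control, and the difference is that of the Cy5 slide minus that of the Cy3 slide. The p by limma for this difference follows its size and hardly the spread of the gene between replicates. For MRPS7 the difference was -3.11 (-0.90 and 2.21, limma, adjusted p = 1.02e-29). MRPL38 had a difference of -1.92 (-0.64 and 1.28, limma, adjusted p = 3.74e-11), and MRPL39 one of -1.61 (-1.16 and 0.45, limma, adjusted p = 8.30e-08). MRPL51 differed by -0.89 (-0.42 and 0.47, limma, adjusted p = 0.0103) and MRPL22, which lines the tunnel, by -0.82 (-0.38 and 0.44, limma, adjusted p = 0.0204).

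The opposite direction was seen in MRPL3, with a difference of 1.25 (0.41 and -0.83, limma, adjusted p = 8.00e-05), and MRPL18, with 0.87 (0.26 and -0.61, limma, adjusted p = 0.0130). In DAP3, a GTP-binding protein of the small subunit also linked to apoptosis, the difference of 0.61 (0.23 and -0.39) did not pass (limma, adjusted p = 0.118). In each of these genes the mean over both slides, on the probe read, is an average of opposite signs. For MRPL39, a dimmer probe with a mean of -0.63 was below 0 on every array of both slides. Whether the slide or the dye moves these values cannot be told apart.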

How the results depend on the processing

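Where an alternative gave MRPL57 another log2 ratio (no or plain background correction, median centring, either slide, each replicate left out, the authors' values), it had rank 1 in the set, except rank 2, behind MRPS7, within the Cy3 slide. The other alternatives kept its ratio of 1.74. Its log2 ratio ran from 1.56 to 1.94 when a replicate was left out. It did not pass without replicate 1 (1.73, limma, adjusted p = 0.419) or with the probes of each gene averaged (1.74, limma, adjusted p = 0.0880). The large minus small difference stayed within the replicate spread, between -0.19 without replicate 2 and 0.02 within the Cy3 slide. Genes of the set at an unadjusted p under 0.05 numbered 7 higher, or 11 within the Cy3 slide (11.3% of all genes there) and 5 to 8 with a replicate left out (5.13% to 9.02% of all genes). They numbered 9 lower, or 16 under median centring (11.6% of all genes), 17 within the Cy5 slide (8.91%), 4 with the filter on all arrays (10.1%) and 3 (without replicate 1, 5.42%) to 12 (without replicate 3, 10.9%) with a replicate left out.

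Probes passing adjustment numbered 4 higher and 0 lower. They numbered 152 and 35 with plain background subtraction, 595 and 500 with a dye term on the 6 arrays as separate samples with no block, 304 and 212 within the Cy5 slide, 789 and 345 within the Cy3 slide, and 8 and 1 in the authors' series values. With no filter 7 were higher, with the filter on all arrays 15, and with probes averaged 0. Leaving out a replicate gave 0 (without replicate 1) to 707 higher and 0 to 547 lower (both without replicate 3). The sign turned within a slide for MRPL39 (0.45, Cy3 slide), MRPS7 (-0.90, Cy5 slide) and SSBP1 (0.088, Cy5 slide). The cause of these changes was not tested.

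With all 6 arrays and the replicate number as a block, 150 probes were higher and 84 lower. The estimated correlation within a replicate was -0.0259, so this fit in effect counts the arrays as 6 separate samples. In it MRPL57 passed (limma, adjusted p = 0.0196), as did MRPS15, MRPL50, TRMT10C and LONP1, which do not pass on the 3 replicate means.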
